A study of Arabidopsis thaliana with 6 samples.

Results

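XTH19 (AT4G30290), EXGT-A3 (AT2G01850, also named XTH27) and XTH16 (AT3G23730) encode xyloglucan endotransglucosylase/hydrolases (XTHs), and their transcript levels were compared between 35S::KLU and wild-type (WT) seedlings of Arabidopsis thaliana. They were chosen by their symbols in the platform annotation, among probe sets paired with exactly 1 gene, and because limma had placed them lower in 35S::KLU on these same arrays. They are 3 of the 10 XTH genes with such a probe set, of 33 XTH genes listed by locus and of 13356 genes measured in all. Genes are called measured here if the annotation gave them such a probe set. In 35S::KLU plants the 35S promoter, which is strong and active in nearly all tissues, drives KLU. The product of KLU is CYP78A5, a cytochrome P450 that prolongs the growth of leaves and floral organs. How many independent lines were used is not given in the sources used here. WT plants were of the same accession, Col-0, and neither genotype was treated. Each genotype had 3 Affymetrix ATH1 arrays, 1 per biological replicate, from shoots at growth stage 1.03, with 5 seedlings pooled per sample. The replicates came from independent experiments in which both genotypes shared plates.

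Xyloglucan is the main hemicellulose of the primary wall in Arabidopsis leaves, where it coats and links cellulose microfibrils. XTH enzymes cut a xyloglucan chain and either join the cut end to another xyloglucan chain or, in a few family members, transfer it to water and so hydrolyse the chain. The family is known for wall remodelling in growing and in maturing cells, and its genes respond differently to hormones, touch and light.

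Array signals are RMA values on the log2 scale, on which 1 unit is a doubling. RMA compresses low signals, so a fold understates the change of a dim probe set. The arrays were alike in scale, with medians between 6.01 and 6.05. KLU itself had no probe set paired with it in the annotation and was not analysed here, so the labels of the arrays could not be set against the overexpressed gene. The shoot label was set against 5 measured photosynthetic genes, of 18 listed. All 5 were bright in both genotypes, at mean log2 levels of 13.10 to 14.07 in 35S::KLU and 13.15 to 14.19 in WT, and none passed the threshold. Of 15 root markers listed, 3 were measured. The root hair expansin gene EXPA7 averaged 4.05 in 35S::KLU and 4.22 in WT, near the arrays' lower quartiles of 4.06 to 4.11. EXPA18, another root hair expansin gene, averaged 4.80 in 35S::KLU and 4.87 in WT, above those quartiles. PYK10, a beta-glucosidase gene known mainly from roots and hypocotyls, averaged 10.68 ± 0.15 in 35S::KLU and 10.25 ± 0.26 in WT (log2, SD, n = 3 each).

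Levels of all 3 genes were lower on every 35S::KLU array than on any WT array. That direction is what chose them, so their differences are a description and carry no test. Among all 13356 genes, 3.34% passed the limma threshold (adjusted p of 0.05) in the lower direction, and 13.3% had all 35S::KLU arrays below all WT arrays. Over all probe sets, 8.32% passed in either direction. The value that selected them, the adjusted p, was 0.013 for XTH16, the nearest inside the threshold, and 0.12 for XTH33, the nearest outside it. XTH16 was outside the threshold without 35S::KLU replicate 3 (limma adjusted p = 0.055) or without WT replicate 2 (limma adjusted p = 0.058).

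XTH19 belongs to a group of closely related XTH genes known mainly from roots. Its log2 level was 5.51, 6.05 and 5.60 in 35S::KLU replicates 1, 2 and 3, against 6.70, 6.56 and 6.89 in the WT replicates. The 35S::KLU arrays spread over 0.55 because replicate 2 lay above the other two, and it was still 0.50 below the lowest WT array. The means were 5.72 ± 0.29 in 35S::KLU and 6.72 ± 0.17 in WT (log2, SD, n = 3 each), a difference of -1.00 or a 2.0-fold lower level. Only 34 of the 13356 genes had a more negative difference. Of the 3 root markers, EXPA7 and EXPA18 had negative log2 differences (-0.17 and -0.07) and PYK10 a positive one (0.43, SE 0.13, limma adjusted p = 0.078), and none passed the threshold. Their median difference was -0.07. Their summed linear signal, nearly all of it from PYK10, was 1560 to 1880 in 35S::KLU and 1090 to 1520 in WT. Their part in the XTH19 difference was not tested. In these bulk samples, fewer cells of a type and less RNA per cell cannot be told apart.

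EXGT-A3 encodes an XTH known from work on Arabidopsis leaves to take part in the development of tracheary elements, the water-conducting cells of leaf veins. Its log2 level was 9.44, 9.63 and 9.59 in the 35S::KLU replicates, against 10.28, 10.23 and 10.24 in the WT replicates. It was the steadiest of the 3 genes, with ranges of 0.20 in 35S::KLU and 0.05 in WT and a gap of 0.59 between the genotypes. The means were 9.55 ± 0.10 in 35S::KLU and 10.25 ± 0.03 in WT (log2, SD, n = 3 each), so the level was 1.62-fold lower in 35S::KLU. On the log2 scale the difference was -0.70, and 86 genes had a more negative one.

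XTH16 had the smallest difference. Its log2 level was 7.34, 7.21 and 7.13 in the 35S::KLU replicates, against 7.56, 7.66 and 7.81 in the WT replicates. The gap between the genotypes was 0.22, about as wide as the ranges within 35S::KLU (0.21) and within WT (0.25). Means of 7.23 ± 0.11 in 35S::KLU and 7.68 ± 0.13 in WT (log2, SD, n = 3 each) gave a difference of -0.45, or a 1.37-fold lower level, and 235 genes had a more negative difference.

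The 3 genes did not order the 35S::KLU arrays alike. XTH19 and EXGT-A3 were lowest in replicate 1 and highest in replicate 2, whereas XTH16 was highest in replicate 1 and lowest in replicate 3. Set array against array, the 9 differences between a 35S::KLU and a WT array ran from -1.39 to -0.50 for XTH19, from -0.84 to -0.59 for EXGT-A3 and from -0.68 to -0.22 for XTH16 (log2). Between arrays of the same replicate number the differences were -1.19, -0.50 and -1.29 for XTH19, where replicate 2 gave the smallest. For EXGT-A3 they were -0.84, -0.59 and -0.65, and replicate 2 again gave the smallest. For XTH16 they were -0.22, -0.45 and -0.68, with the smallest in replicate 1.

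**Figure D1:**
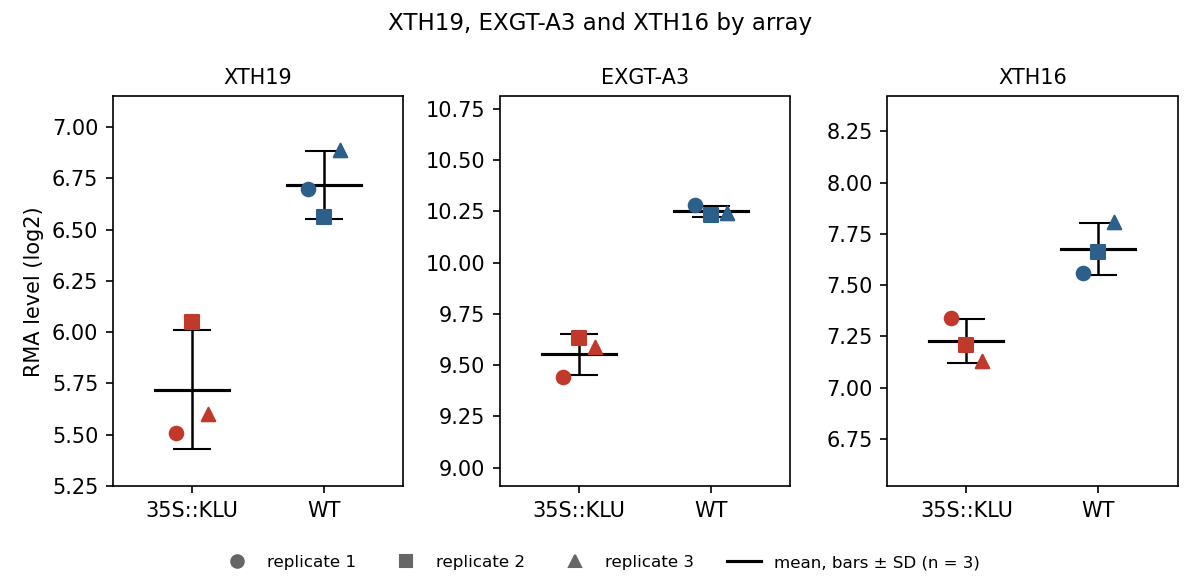
RMA level (log2) of XTH19, EXGT-A3 and XTH16 on each array, with 35S::KLU left of WT, 1 symbol per replicate, the mean as a line and the SD as bars (n = 3). Every panel spans the same number of log2 units; the 35S::KLU arrays lie below the WT arrays by 0.50 for XTH19, 0.59 for EXGT-A3 and 0.22 for XTH16.

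Of the other 30 XTH genes, 7 had a single-gene probe set in the annotation, and 23 had none there and were not analysed here. The annotation named no gene for 8730 of 22746 probe sets, so a gene missing from it is not shown to be missing from the array. None of the 7 passed the limma threshold in either direction. An unadjusted limma p under 0.05 was found for 1 of the 7, and for 2552 of all 13356 genes. Their median log2 difference was -0.08, beside -0.02 over all 13356 genes. XTH33, whose product is predicted to be anchored in the plasma membrane, came nearest to the 3 genes. It had log2 levels of 4.73, 4.95 and 4.83 in 35S::KLU against 5.01, 5.19 and 5.05 in WT, so the genotypes did not overlap. Its difference was -0.24 (95% confidence interval -0.43 to -0.06, limma adjusted p = 0.12). Weighting the arrays by their quality brought it past the threshold (limma adjusted p = 0.034).

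XTH32 belongs to the branch of the family known for hydrolysing xyloglucan. Its log2 levels were 9.70, 9.57 and 9.47 in 35S::KLU against 9.34, 9.46 and 9.49 in WT, and the genotypes overlapped. Its difference was 0.15 (95% confidence interval -0.04 to 0.33, limma adjusted p = 0.35), and whether it differed from that of EXGT-A3 was not tested.

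XTH18 and XTH20 belong with XTH19 to the same group of close relatives. XTH18 and XTH24 lie within 5 protein-coding genes of XTH19 on chromosome 4, and XTH24 had no single-gene probe set. XTH18 averaged 3.41 ± 0.13 in 35S::KLU and 3.59 ± 0.07 in WT (log2, SD, n = 3 each), below the arrays' lower quartile, with a difference of -0.18 (95% confidence interval -0.37 to 0.01). XTH20 averaged 4.01 ± 0.29 in 35S::KLU and 4.12 ± 0.09 in WT, about at that quartile, and differed by -0.11 (95% confidence interval -0.40 to 0.19). Whether the probes for XTH19 also bind transcripts of these relatives was not checked. XTH21, XTH26 and XTH29 were likewise below the lower quartile in both genotypes and differed by 0.00, -0.08 and 0.00.

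**Figure D2:**
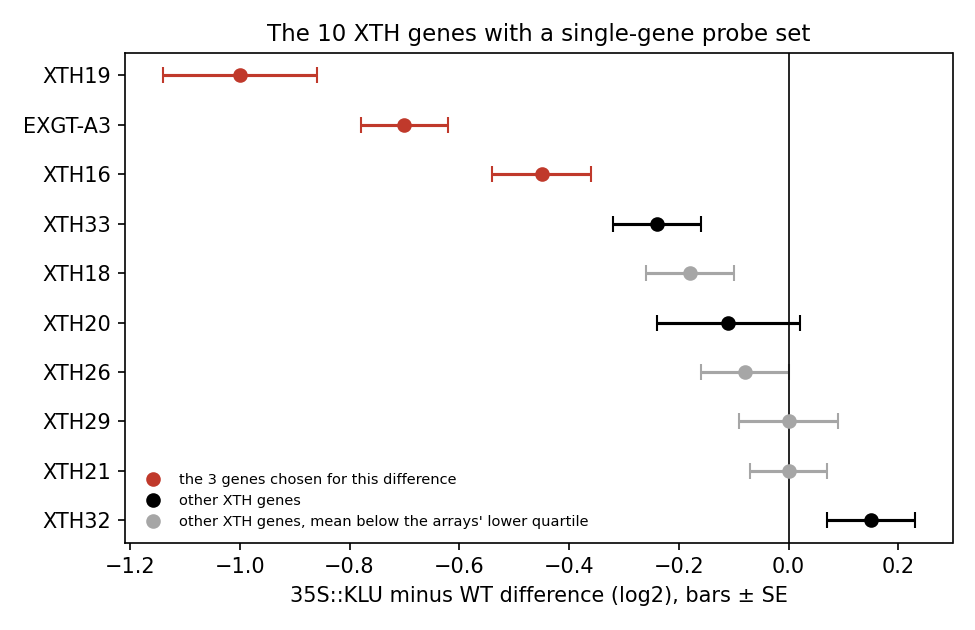
Difference of 35S::KLU minus WT (log2, with bars of ± SE) for the 10 XTH genes with a single-gene probe set, in order of the difference. XTH19 (-1.00), EXGT-A3 (-0.70) and XTH16 (-0.45), chosen for this difference, lie farthest left, and XTH32 (0.15) lies farthest right; grey points are dim probe sets.

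XTH enzymes act on xyloglucan made in the Golgi, where CSLC proteins build the glucan backbone. Of 18 genes listed for xyloglucan synthesis, 5 were measured, all of them CSLC genes, and 1 fell and 0 rose (limma), where 3.34% of all genes passed in the lower and 3.51% in the higher direction. The median log2 difference of the 5 was -0.06. CSLC4, which encodes a xyloglucan backbone synthase, had levels of 8.98, 9.04 and 8.97 in 35S::KLU against 9.46, 9.36 and 9.29 in WT. The genotypes did not overlap, and CSLC4 fell by 0.37 on the log2 scale (SE 0.07, limma adjusted p = 0.013), which is 1.30-fold lower. The call was lost without WT replicate 2 (limma adjusted p = 0.057). CSLC5, CSLC6, CSLC8 and CSLC12 differed by 0.12, -0.06, -0.06 and -0.01 and did not pass, CSLC12 being below the lower quartile. None of the 4 genes listed for trimming of xyloglucan side chains in the wall had a single-gene probe set.

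EXO is a brassinosteroid-responsive gene for a cell wall protein that promotes leaf cell expansion, and it was the only 1 of 22 brassinosteroid genes listed that was measured. Its log2 levels were 7.50, 7.24 and 7.24 in 35S::KLU against 7.98, 7.85 and 8.02 in WT. Without overlap between the genotypes, EXO fell by 0.62 (SE 0.09, limma adjusted p = 0.0029), a 1.54-fold lower level. A single gene does not speak for the brassinosteroid list.

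**Figure D3:**
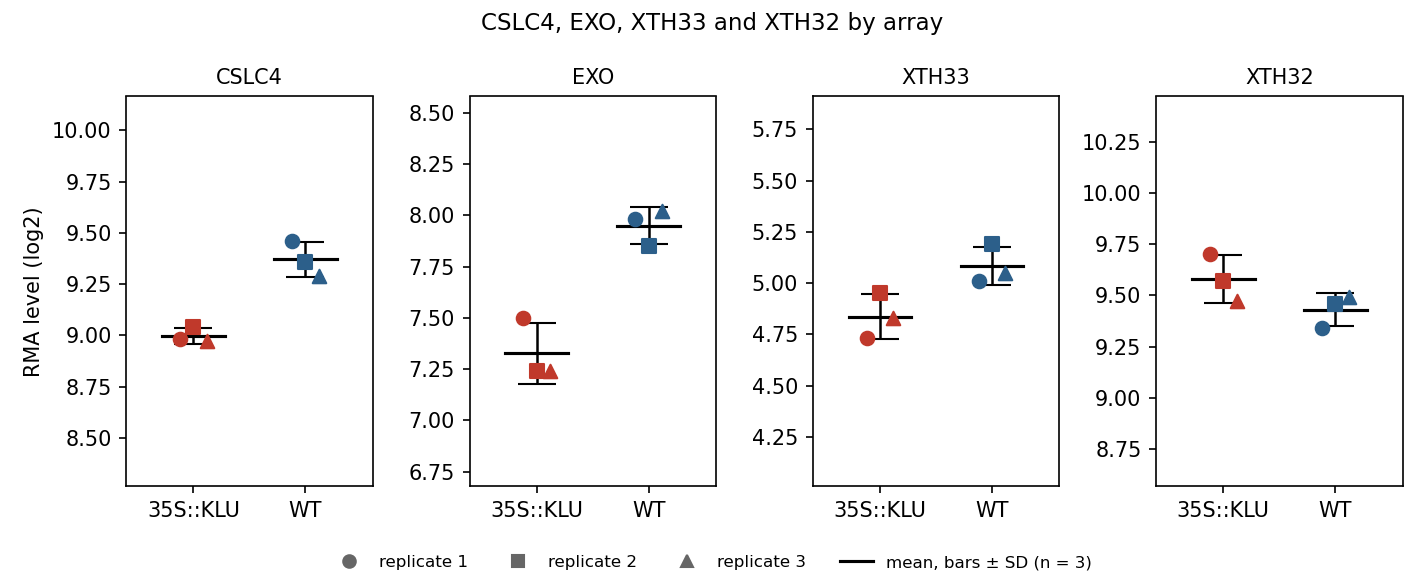
RMA level (log2) of CSLC4, EXO, XTH33 and XTH32 on each array, with 35S::KLU left of WT, 1 symbol per replicate, the mean as a line and the SD as bars (n = 3). CSLC4 and EXO were lower in 35S::KLU (differences -0.37 and -0.62), XTH33 did not pass the threshold (-0.24), and the genotypes overlapped for XTH32 (0.15).

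Expansins loosen the wall without cutting its polymers. The list also holds expansin-like genes, whose names start with EXL and whose action on the wall was not examined here. Of 15 measured members of 27 listed, 2 fell, 2 rose and 11 did not pass (limma). Over all genes, 3.34% passed in the lower and 3.51% in the higher direction. The median log2 difference of the expansin list was -0.08. EXPA8 (-1.02, limma adjusted p = 0.00017) and EXLA1 (-0.69, limma adjusted p = 0.0012) fell, and EXLB1 (0.78, limma adjusted p = 0.0074) and EXPB3 (0.63, limma adjusted p = 0.012) rose. EXPB3 was no longer past the threshold without WT replicate 2 (limma adjusted p = 0.052).

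Endoglucanases of glycoside hydrolase family GH9 cut glucan chains, and several act on cellulose in the wall. Of 15 measured GH9 genes 1 rose, 0 fell and 14 did not pass (limma), with a median log2 difference of 0.03, beside 3.51% of all genes passing in the higher and 3.34% in the lower direction. GH9B8 rose by 0.88 (SE 0.09, limma adjusted p = 0.00053). Its levels were 7.57, 7.52 and 7.37 in 35S::KLU against 6.58, 6.47 and 6.78 in WT, which did not overlap. Over all genes, 10.2% had every 35S::KLU array above every WT array.

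TBL genes encode a family in which several members add acetyl groups to wall polysaccharides, xyloglucan among them. The list was drawn from measured genes only, and which polysaccharide, if any, its members act on was not examined. Of 22 measured TBL genes 2 fell, 0 rose and 20 did not pass (limma), with a median log2 difference of -0.03. The shares over all genes were 3.34% in the lower and 3.51% in the higher direction. TBL45 had levels of 8.62, 8.59 and 8.71 in 35S::KLU against 9.23, 9.39 and 9.36 in WT. It fell by 0.69 (SE 0.07, limma adjusted p = 0.00057), while TBL37 fell by 0.33 (limma adjusted p = 0.024). The TBL37 call was lost on leaving out 35S::KLU replicate 2 or 3 or WT replicate 1 or 3, with limma adjusted p between 0.056 and 0.083. In the remaining lists, COB, which encodes a protein needed for the orientation of cellulose microfibrils, was the only 1 of 14 cellulose genes measured. It differed by -0.13 (limma adjusted p = 0.40). PGX3, a polygalacturonase gene and the only 1 of 10 pectin genes measured, differed by 0.44 (limma adjusted p = 0.20), and passed without 35S::KLU replicate 2 (limma adjusted p = 0.034).

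**Figure D4:**
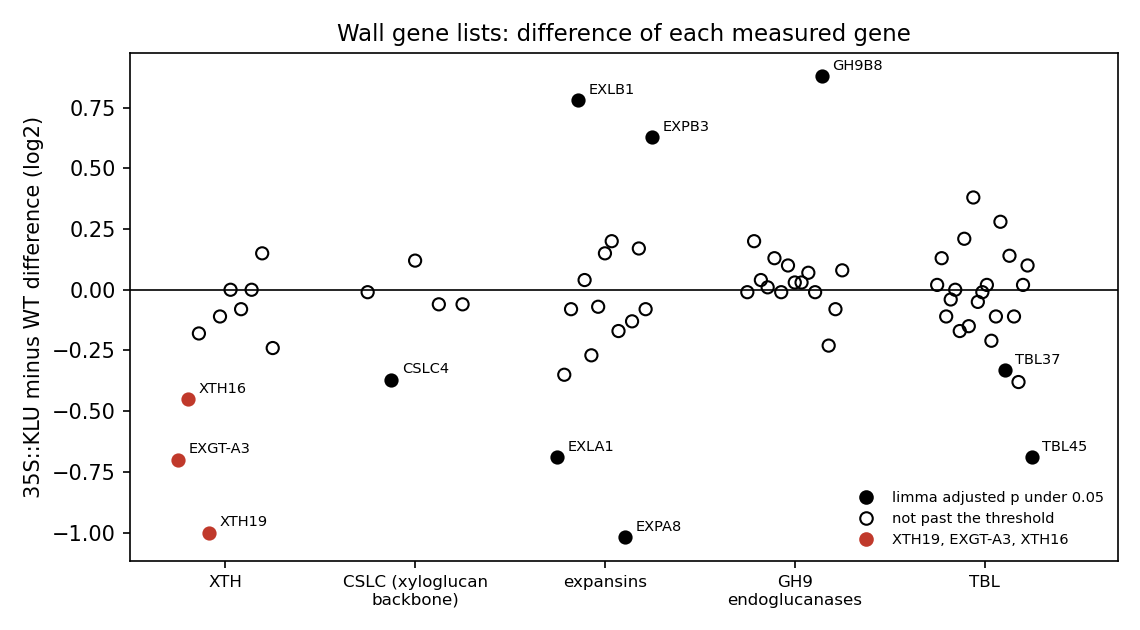
Difference of 35S::KLU minus WT (log2) for each measured gene of 5 wall gene lists, with filled points past the limma threshold (adjusted p of 0.05), open points not, and XTH19, EXGT-A3 and XTH16 in red. XTH19, EXGT-A3 and XTH16, the only XTH genes past the threshold, were chosen for lying below 0. CSLC4, TBL45 and TBL37, also past it, lie below 0, GH9B8 (0.88) lies above 0, and expansins lie on both sides.

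Genes of like profile were ranked by the root mean square difference over the 6 arrays, after each gene's WT mean had been subtracted from its values. This measure gives closeness in log2 units, and since the 3 genes were chosen for their profile it carries no test. Nearest to XTH19 were AT1G67860 (0.127), the transcription factor gene BZIP61 (0.148) and AT5G14120 (0.150). Nearest to EXGT-A3 were AT1G10020 (0.0555), AT4G32340 (0.0578) and the expansin-like gene EXLA1 (0.0603). EXLA1 is itself a wall gene, with levels of 4.08, 4.32 and 4.11 in 35S::KLU against 4.94, 4.78 and 4.86 in WT, close to the lower quartile in 35S::KLU.

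XTH16 was nearest to AT1G16170 (0.0339), Phox4 (0.0393) and HEMA2 (0.0480), a glutamyl-tRNA reductase gene of tetrapyrrole synthesis. The distances among the 3 XTH genes were 0.266 between XTH19 and EXGT-A3, 0.225 between EXGT-A3 and XTH16 and 0.439 between XTH19 and XTH16. They exceed those to the neighbours, which were picked as the closest of all measured genes. The measure also counts the unlike sizes of the 3 differences as distance.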

How the data were processed

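The authors made the deposited log2 values with RMA (background correction, quantile normalization and probe summary), according to the submitters' processing notes, which state no version. The range of the values was checked against a log2 scale. Of 22810 probe sets, 64 controls were left out and 22746 tested with no filter on level. The platform annotation named 1 gene for 13513, several for 503 and none for 8730, and 13286 of 13356 genes matched RefSeq (TAIR10.1) by identifier. Each gene was taken by its brightest probe set, and XTH19, EXGT-A3 and XTH16 each had 1.

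Differences are 35S::KLU minus WT, from limma 3.58.1 (lmFit and eBayes, R 4.3.3) on 6 arrays. Tests were two-sided, p-values were adjusted by Benjamini-Hochberg across the 22746 probe sets, and the threshold was 0.05. Gene lists were set by locus, except the GH9 and TBL lists, set by symbol after the annotation was seen. Members and lists were chosen with earlier results of these data known. Named were the measured XTH and xyloglucan genes, then from the other lists members past the threshold, and otherwise up to 3 with the smallest p. For each of the 3 genes, the 3 genes of most like profile were also named. On simulated data (200 of 22746 probe sets changed) limma recovered 49.3% of changes of 0.5, 98.5% of changes of 1 and 100% of changes of 2 on the log2 scale, with 7 false calls. The simulated noise was independent between arrays, and 8.32% of probe sets passed in the data. These rates therefore need not hold for the data. The number of arrays limits the precision. The alternatives were 3 scalings, array weights, a replicate block, leaving out each array, a stricter threshold, removal of dim probe sets, other eBayes settings and averaging the probe sets of each gene. Python 3.11.15, pandas 2.3.3 and matplotlib 3.10.9 were used for tables and figures.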

Additional observations from a re-analysis of the deposited data

How the results depend on the processing

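Other scalings, of values already quantile-normalized by RMA, gave differences of -0.99 to -0.98 for XTH19, -0.69 to -0.66 for EXGT-A3 and -0.44 to -0.43 for XTH16. These, and those with array weights, stayed within 1 replicate SD of the reported values. Averaging probe sets could not move the differences, as each gene had 1. Leaving out 1 array in turn gave -1.16 to -0.89, -0.74 to -0.64 and -0.51 to -0.38. With no overlap, leaving out or weighting arrays could not change the sign, nor the former exceed 1 SD. The count of the other XTH genes that rose stayed at 0, and the count that fell was 1, XTH33, with array quality weights and 0 otherwise, the cause of which was not tested. Over all probe sets, 1893 passed limma's threshold, 2978 with array quality weights, 789 at an adjusted p of 0.01, and 906 to 1962 with 1 array left out. The 906 came without WT replicate 2, and the counts were 1142 without 35S::KLU replicate 3, 1219 without 35S::KLU replicate 2 and 1236 without WT replicate 3. In the xyloglucan, cellulose, pectin, brassinosteroid and expansin lists together 6 of 23 measured genes were called, 4 lower and 2 higher. Over all genes, 3.34% passed in the lower and 3.51% in the higher direction. With 1 array left out, 4 to 8 genes of these lists were called.

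Arrays of the same replicate number did not deviate together, with correlations of deviations from the genotype means of -0.205, 0.039 and -0.056 for replicates 1, 2 and 3, so the numbers were not taken to pair the samples. Between arrays of unlike number the correlations ran from -0.154 to 0.21. The main fit had no term for the experiment that the genotypes shared. With the replicate number as a block, 1279 probe sets passed and TBL37 lost its call (limma adjusted p = 0.052). Such a block cannot change the differences of XTH19, EXGT-A3 and XTH16 (-1.00, -0.70 and -0.45), since each number held 1 array per genotype. The limma adjusted p that had selected them became 0.012, 0.0044 and 0.049, from 0.0024, 0.00053 and 0.013. Probes for 4 of the 7 other XTH genes were below the arrays' lower quartile on average, where changes are understated.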
